A study of Homo sapiens with 14 samples.

Results

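The genes described here encode the D-type cyclins (CCND1, CCND2 and CCND3), the kinases they activate (CDK4 and CDK6) and inhibitors of those kinases (CDKN1A, CDKN1B, CDKN2A, CDKN2B and CDKN2D). A peak was counted at a gene when the deposited table gave that gene as its next transcript, which selected 92 of 88872 peaks for these 10 genes, out of 24510 genes named in the tables. All 10 genes had at least 1 peak. The peaks mark where SKI and RUNX1 were found by chromatin immunoprecipitation and sequencing in HL60 cells, which derive from human acute myeloid leukaemia. The lists used are SKI in CRISPR/Cas9 control cells (1 list, CTR-1), SKI in unmodified (WT) cells (replicates 1 and 2) and RUNX1 in unmodified cells (1 list). All cells grew in RPMI with serum, the labels name no drug and no time point, and they do not say whether CTR-1 is a single clone. The other 10 of 14 samples, including cells with SKI deleted, are not analysed here, so SKI signal that does not depend on SKI was not separated.

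D-type cyclins bind CDK4 and CDK6, and the active kinases phosphorylate the retinoblastoma protein, which lets a cell pass from G1 into S phase. The INK4 proteins (from CDKN2A, CDKN2B and CDKN2D) bind CDK4 and CDK6 and block them, whereas the CIP/KIP proteins p21 (CDKN1A) and p27 (CDKN1B) bind whole complexes of cyclin and kinase. TGF-beta, through SMAD proteins, is known to arrest many cell types with a rise of CDKN2B and CDKN1A. SKI is a corepressor that binds SMADs, and RUNX1 is a DNA-binding factor of blood formation.

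The lists held 14019 peaks for SKI in control cells, 54841 for SKI in unmodified replicate 1, 14431 for SKI in unmodified replicate 2 and 5581 for RUNX1. Replicate 1 stands apart by its length, and peaks seen in it alone are named as such. No source used here gives the library totals, so tags, the reads counted in a peak, show the depth behind each value. Fold enrichment is the authors' value per peak over background. It ranks peaks inside a list here, as a percentile, the share of that list's peaks that are weaker, with ties split evenly. With 1 or 2 lists a group there was no test across samples, and the values describe these lists. A range in parentheses after a share is its 95% Wilson interval and reflects counting error alone. Positions are on hg19.

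SKI peaks were listed at most of the 10 genes in every SKI list, and RUNX1 peaks at few of them. SKI peaks numbered 21 in control cells, 44 in unmodified replicate 1 and 21 in unmodified replicate 2, at 8, 10 and 7 of the 10 genes. Over 20056 protein-coding genes, 29.7%, 65.0% and 30.7% were named by a peak of these lists. RUNX1 had 6 peaks, at CCND3, CCND2 and CDK6, so at 3 of the 10 genes, where 11.2% of protein-coding genes were named. A SKI site was called shared when overlapping peaks of all 3 SKI lists formed it. Of 44 SKI sites at these genes, 14 were shared, where 8980 of all 55146 SKI sites were. A further 5 were in 2 lists, and 25 were in unmodified replicate 1 alone, the longest list. The shares of such sites over all SKI sites were not counted, so these counts are not read as high or low. The shared sites lay at 7 of the 10 genes, where 24.0% of protein-coding genes had one. CCND3 held 4, CDK6 held 3, CDKN1A and CDKN2A held 2 each, and CCND2, CDK4 and CDKN1B held 1 each. CCND1, CDKN2B and CDKN2D had no shared site.

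**Figure D1:**
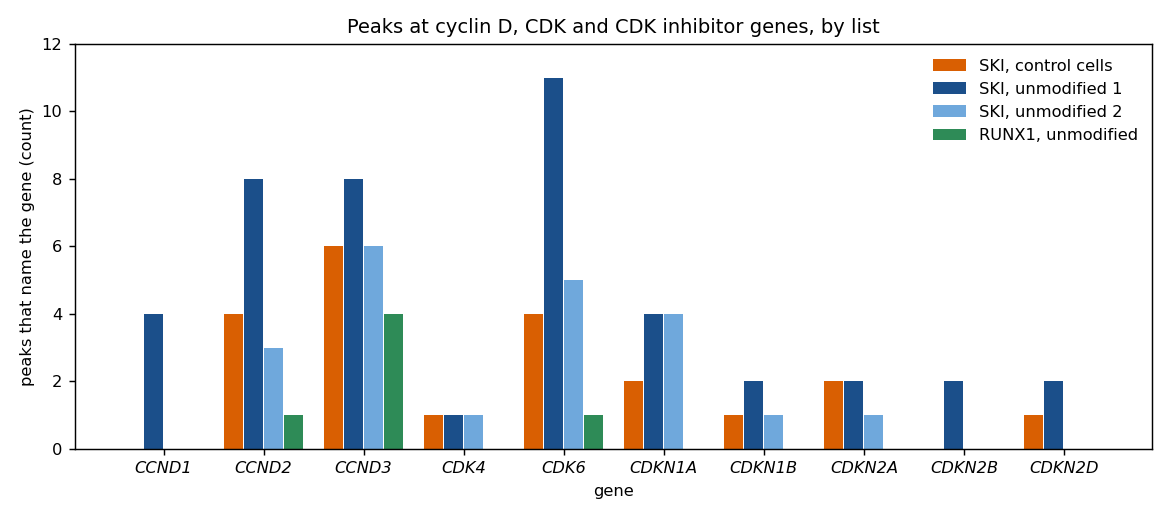
Number of peaks (vertical axis) that name each gene (horizontal axis), with 1 bar for each of the 4 lists. CCND3 has 4 RUNX1 peaks, CCND2 and CDK6 have 1 each, and CCND1 and CDKN2B have bars from unmodified replicate 1 alone.

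CCND3, a cyclin D prominent in blood cells, had 24 of the 92 peaks and was the only one of the 10 genes with RUNX1 on a shared SKI site. SKI peaks numbered 6 in control cells, 8 in unmodified replicate 1 and 6 in unmodified replicate 2, and RUNX1 peaks numbered 4. In the RUNX1 list, 93 of 4218 named genes had at least that many. The shared sites formed an inner cluster around downstream starts of the gene and an outer pair near its upstream start.

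In the inner cluster, the site chr6:41902413-41904808 lay inside the gene, at +1889, +1931 and +1904 bp from a transcription start (TSS) in control cells, unmodified replicate 1 and unmodified replicate 2. Its SKI fold enrichments were 34.11, 63.53 and 25.66 in that order, with 259, 1005 and 200 tags. Each was above the 90th percentile of its own list, at 92.6, 91.6 and 91.0. RUNX1 had a fold enrichment of 69.61 with 195 tags on the same site, rank 193 of its list.

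The neighbouring site, chr6:41904873-41910269, carried a pair of RUNX1 peaks. The stronger, at +1137 bp from a TSS, had a fold enrichment of 72 with 246 tags, rank 177, the best of any RUNX1 peak at the 10 genes. The SKI peaks on it had fold enrichments of 43.73 (270 tags) in control cells and 23 (155 tags) in unmodified replicate 2, at percentiles of 95.6 and 88.6. So SKI and RUNX1 were both in the upper part of their lists there.

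The weaker RUNX1 peak, at -43 bp from a TSS, had a fold enrichment of 23.08 with 111 tags, at percentile 64.0. SKI had 30.84 (185 tags) in control cells and 8.48 (108 tags) in unmodified replicate 2, at percentiles of 91.1 and 36.0, so these lists differed in where they ranked it. In unmodified replicate 1 a single SKI peak of 5397 bp, with 2733 tags and a fold enrichment of 53.58, covered the stretch that both other SKI lists split into 3 peaks each. At the 3 RUNX1 peaks of the inner cluster, SKI and RUNX1 summits lay 1 to 58 bp apart in control cells and unmodified replicate 2.

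**Figure D2:**
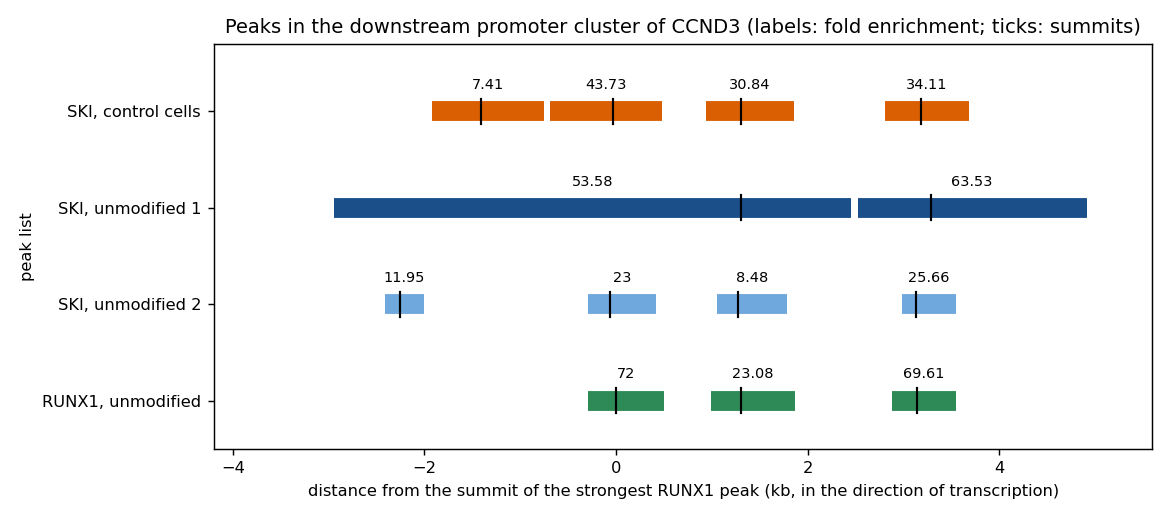
Peaks of the inner cluster of CCND3, 1 row per list, placed by distance in kb from the summit of the strongest RUNX1 peak in the direction of transcription. Bars are peaks, black ticks are summits and numbers are fold enrichments. Each of the 3 RUNX1 peaks meets a SKI peak in every SKI row, and the 5397 bp peak of unmodified replicate 1 covers 2 of them.

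At the outer pair of CCND3 sites RUNX1 was weaker or not listed. The intronic site chr6:42013009-42014528 had SKI fold enrichments of 10.29 in control cells, 82.18 in unmodified replicate 1 and 9.48 in unmodified replicate 2. These stood at percentiles of 40.7, 95.8 and 43.8, high in replicate 1 and below the middle in the other lists. RUNX1 had 15.48 there with 54 tags, at percentile 38.8.

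The outermost start, chr6:42015712-42017097, had SKI fold enrichments of 6.43 in control cells, 48.4 in unmodified replicate 1 and 14.05 in unmodified replicate 2, and no RUNX1 peak. Unmodified replicate 1 alone added 4 intronic CCND3 peaks with fold enrichments between 8.16 and 28.65. Counting by the nearest transcript also leaves out peaks inside the stretch that CCND3 peaks span, which name RNU6-761P or RP11-533O20.2. There was 1 in control cells, 5 in unmodified replicate 1 and 3 in unmodified replicate 2, the strongest with 65.65 in replicate 1, and none had RUNX1. The genes whose peak counts over the 4 lists were nearest to those of CCND3 were CITED2, HCG20 and RUNX2, each differing by 2 peaks in all.

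CCND2, the D-type cyclin that responds to growth factor signals in many cell types, had a wide shared SKI site over its promoter and no RUNX1 on it. The site, chr12:4379823-4385460, had top fold enrichments of 16.52 in control cells, 61.51 in unmodified replicate 1 and 10.73 in unmodified replicate 2, with 202, 1675 and 199 tags in all. These stood at percentiles of 70.0, 91.1 and 52.4. In unmodified replicate 1 it was a single peak of 5638 bp, at the 99.96 percentile of width in that list. Beside it, peaks that name RP11-264F23.3 had 25.02 (130 tags) in unmodified replicate 1 and 10.15 (38 tags) in unmodified replicate 2. They are not counted at CCND2, and neither had RUNX1.

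Upstream of CCND2 the lists differed. An intronic site next to the promoter, chr12:4377806-4379540, had fold enrichments of 16.96 in control cells and 72.93 in unmodified replicate 1, and no peak in unmodified replicate 2. The CCND2 RUNX1 peak lay far upstream at chr12:4352388-4352733, at -30440 bp and called intergenic, with a fold enrichment of 26.81 and 41 tags. SKI overlapped it with 29.93 (129 tags) in unmodified replicate 1 and 9.77 (40 tags) in unmodified replicate 2, and with no peak in control cells. A further distal site, chr12:4323988-4325211, was in control cells (12.92) and unmodified replicate 1 (21.1).

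CCND1, a D-type cyclin best known from solid tumours and mantle cell lymphoma, had SKI peaks in unmodified replicate 1 alone. Its 4 peaks had fold enrichments between 9.99 and 27.88 and 55 to 236 tags. The strongest, chr11:69457060-69458506, was in the TSS class at -229 bp and stood at percentile 68.7. CCND1 thus differed from CCND2 and CCND3 in having no peak in the shorter SKI lists and no RUNX1.

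CDK4, a kinase partner of the D-type cyclins, had 1 SKI peak in each SKI list, all at its promoter. The site, chr12:58145255-58146840, had fold enrichments of 17.17 in control cells, 9.74 in unmodified replicate 1 and 4.5 in unmodified replicate 2, with 73, 247 and 71 tags. Its percentiles by fold enrichment were 72.1, 15.9 and 2.33, and by tags 60.7, 77.6 and 66.1. By tags the peak was thus above the middle of all 3 lists, unlike its low place by fold enrichment in both unmodified lists. In unmodified replicate 2 its −log10 p-value was also low, at 5.27, where the lowest listed value was 5.001. With a −log10 p of at least 10 that peak drops out, and CDK4 then has no shared site. No RUNX1 peak named CDK4.

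CDK6, the other kinase partner and a prominent one in leukaemia, had SKI at its promoter and in its introns, over 216379 bp. Its promoter site, chr7:92461948-92466632, had top fold enrichments of 9.5 in control cells, 56.72 in unmodified replicate 1 and 17.18 in unmodified replicate 2, at percentiles of 35.3, 89.5 and 78.9. The intronic site chr7:92438824-92440135 had 8.57, 88.08 and 15.81 in that order, and its 88.08 was the highest SKI value at the 10 genes in replicate 1 (rank 1805). The intronic site chr7:92384115-92385133 had 10.02, 64.16 and 13.2. By fold enrichment the top peak of all 3 sites stood below the middle of the control list and above the middle of both unmodified lists. By tags this order held only in part. Against it, the control peaks of the promoter site stood at percentiles of 85.7 and 55.6 and that of chr7:92438824-92440135 at 74.3. The intronic peaks of unmodified replicate 2, at 15.6, 18.4 and 46.0, also went against it. The control peak of chr7:92384115-92385133, at 14.3, and the promoter peaks of unmodified replicate 2, at 61.6 and 63.4, kept to it.

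None of these 3 CDK6 sites carried RUNX1. The CDK6 RUNX1 peak, chr7:92250282-92250814, was intronic at -2971 bp from a TSS, with a fold enrichment of 8.93 and 42 tags, rank 4940 of 5581. The SKI peak on it was listed in unmodified replicate 1 alone, with 20.97 and 106 tags. Replicate 1 held 8 CDK6 peaks without a counterpart in the other SKI lists, all intronic.

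CDKN1A, which encodes p21, had a pair of shared SKI sites, at its start and inside the gene, and the best SKI rank of the 10 genes in unmodified replicate 2. The exonic site, chr6:36649751-36651224, had fold enrichments of 27.98 in control cells, 62.97 in unmodified replicate 1 and 35.1 in unmodified replicate 2, with 113, 561 and 269 tags. Its percentiles were 88.9, 91.5 and 95.5, high in every SKI list, and the peaks lay +4248, +4219 and +4150 bp from the TSS. The site nearer the start, chr6:36646079-36648951, had top fold enrichments of 13.93, 62.45 and 24.19 in the same order.

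That site reached the CDKN1A start itself. There unmodified replicate 2 had a SKI peak at -21 bp, with a fold enrichment of 5.31 and 61 tags. The single peak of unmodified replicate 1 at this site, 2873 bp wide, covered it, and no control peak overlapped it. A downstream intergenic site at +13618 and +13658 bp was listed in unmodified replicate 1 (22.92) and replicate 2 (7.7), with no peak in control cells. No RUNX1 peak named CDKN1A in this list.

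CDKN1B, which encodes p27, had a shared SKI site at its start. The site, chr12:12868265-12872864, had fold enrichments of 10.62 in control cells, 33 in unmodified replicate 1 and 6.5 in unmodified replicate 2, with 100, 739 and 53 tags. The peaks were +94, +88 and +108 bp from the TSS, so their place agreed closely, while their percentiles were 43.1, 74.8 and 18.0. No RUNX1 peak named CDKN1B.

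CDKN2A encodes p16INK4a and, from an upstream start, ARF. HL60 is known to lack a working CDKN2A, and these lists measure neither genotype nor protein, yet SKI peaks were listed at both starts in all 3 SKI lists. The inner site, chr9:21974413-21976027, had fold enrichments of 13.81 in control cells, 53.62 in unmodified replicate 1 and 13.35 in unmodified replicate 2, with 55, 392 and 55 tags. The peaks lay -150, -40 and -133 bp from the start of ENST00000304494, at percentiles of 60.6, 88.2 and 66.9.

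The outer CDKN2A site, chr9:21993354-21996317, had top fold enrichments of 12.74, 44.61 and 4.5 in the same order. Here the 4.5 of unmodified replicate 2, with 35 tags, is near the bottom of its list. That peak and 1 of 2 in control cells name the neighbouring RP11-149I2.4. With a −log10 p of at least 10, shared sites at the 10 genes fall from 14 to 12, as the CDK4 site and this outer site drop out. No RUNX1 peak lay on either CDKN2A site.

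CDKN2B, an INK4 inhibitor and a textbook TGF-beta target, lies beside CDKN2A and had SKI peaks in unmodified replicate 1 alone. They were chr9:22008537-22009113, with a fold enrichment of 31.73 and 93 tags at +179 bp, and chr9:22009157-22009655, with 13.72 and 84 tags at -33 bp. By fold enrichment they stood at percentiles of 73.5 and 32.2 of that list, and both were under its median of 97 tags. The shorter SKI lists had no peak there.

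CDKN2D, an INK4 inhibitor, had its promoter peak in unmodified replicate 1 alone. That peak, chr19:10678135-10680672, had a fold enrichment of 28.42 and 480 tags at -42 bp. An exonic site, chr19:10682802-10683402, had 4.65 (38 tags) in control cells, at percentile 2.13, and 31.25 (88 tags) in unmodified replicate 1, and no peak in unmodified replicate 2.

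The interval around CDKN2A, from the outermost listed MTAP peak to the outermost listed DMRTA1 peak (chr9:21778088-22447668, both ends set by unmodified replicate 1), held 4 SKI peaks in control cells, 30 in unmodified replicate 1, 5 in unmodified replicate 2, and 3 RUNX1 peaks. Per Mb these are 5.97, 44.8, 7.47 and 4.48, where all of chromosome 9 had 4.85, 17.4, 5.18 and 1.70. The interval was therefore not empty of peaks in any list.

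Promoter sequences show what lies just before the starts of these genes, and those printed belong to genes with a shared SKI site in the TSS class. The bases come from RefSeq (GRCh38.p14, not the build of the peaks), as the 250 bases before a start, and which RefSeq start corresponds to which listed transcript was not determined. RefSeq entries matched 8 of the 10 genes, with 12 starts, and 6 of these genes, with 10 starts, had a shared SKI site in the TSS class. The RUNX core TGTGGT, the SMAD box CAGAC and the GC box GGGCGG, a known SP1 sequence, were searched on both strands. CCND3 is shown because it alone of the 10 genes had RUNX1 peaks in the TSS class, at -43 and +1137 bp from listed starts. Whether those RUNX1 peaks lie at a start printed here was not determined. CDK4 and CDKN1A are shown for their repeated GC boxes, and CDKN2A because SKI lay at both its starts. Capitals mark GC boxes and, at the outer CDKN2A start, a SMAD box. In CDKN1A the innermost pair of GC boxes overlaps by 1 base.
CCND3, outermost start (chr6:42048689-42048938, minus strand): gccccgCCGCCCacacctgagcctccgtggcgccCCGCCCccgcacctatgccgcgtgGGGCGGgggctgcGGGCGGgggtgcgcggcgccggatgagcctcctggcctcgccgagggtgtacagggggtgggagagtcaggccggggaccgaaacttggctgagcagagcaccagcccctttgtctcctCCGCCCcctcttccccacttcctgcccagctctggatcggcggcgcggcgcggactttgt
CCND3, middle start (chr6:41941809-41942058, minus strand): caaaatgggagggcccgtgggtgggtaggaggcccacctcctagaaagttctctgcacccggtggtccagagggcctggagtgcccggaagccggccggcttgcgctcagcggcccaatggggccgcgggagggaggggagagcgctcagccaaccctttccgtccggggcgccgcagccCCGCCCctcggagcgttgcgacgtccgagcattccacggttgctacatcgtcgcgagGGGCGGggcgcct
CCND3, innermost start (chr6:41939206-41939455, minus strand): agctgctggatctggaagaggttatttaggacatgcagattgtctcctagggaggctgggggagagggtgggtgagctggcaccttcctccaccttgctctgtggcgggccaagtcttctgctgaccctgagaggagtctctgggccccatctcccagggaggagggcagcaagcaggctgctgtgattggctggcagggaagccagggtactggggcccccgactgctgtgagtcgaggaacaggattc
CDK4 (chr12:57752311-57752560, minus strand): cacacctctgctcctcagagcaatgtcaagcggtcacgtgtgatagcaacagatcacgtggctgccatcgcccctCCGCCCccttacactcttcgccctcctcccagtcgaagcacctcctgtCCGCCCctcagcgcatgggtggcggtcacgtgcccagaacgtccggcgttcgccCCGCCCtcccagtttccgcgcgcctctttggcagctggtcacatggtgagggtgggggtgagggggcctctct
CDKN1A (chr6:36678464-36678713, plus strand): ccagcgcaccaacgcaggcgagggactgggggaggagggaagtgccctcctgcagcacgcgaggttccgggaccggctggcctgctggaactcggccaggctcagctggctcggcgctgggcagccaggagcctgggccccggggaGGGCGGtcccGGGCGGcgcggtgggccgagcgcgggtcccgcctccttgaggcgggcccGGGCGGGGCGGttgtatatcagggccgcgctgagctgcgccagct
CDKN2A, outer start (chr9:21995325-21995574, minus strand): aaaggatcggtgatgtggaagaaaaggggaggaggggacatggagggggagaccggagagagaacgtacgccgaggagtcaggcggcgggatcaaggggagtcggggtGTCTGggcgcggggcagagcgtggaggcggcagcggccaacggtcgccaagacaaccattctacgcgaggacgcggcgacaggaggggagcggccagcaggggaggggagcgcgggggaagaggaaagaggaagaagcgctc
CDKN2A, inner start (chr9:21974858-21975107, minus strand): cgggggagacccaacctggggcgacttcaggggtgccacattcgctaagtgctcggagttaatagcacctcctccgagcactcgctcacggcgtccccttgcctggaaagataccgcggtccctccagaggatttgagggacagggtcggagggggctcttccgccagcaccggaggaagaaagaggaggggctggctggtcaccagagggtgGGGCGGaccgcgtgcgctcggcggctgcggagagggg

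A GC box was present at 7 of the 10 starts of genes with such a site, and at 9 of the 12 starts once CDKN2B and CDKN2D, which have no shared site, are counted too, where 42.6% of 35116 RefSeq promoters of this length held one. The SMAD box was present at 1 of 12 (38.0% of all), and the RUNX core at 0 of 12 (10.98% of all). The innermost CCND3 start had none of the 3 motifs. These matches describe the letters in these windows, and the windows were not matched to the summits.

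Peaks at the 10 genes lay mostly at promoters in control cells and unmodified replicate 2, and mostly elsewhere in unmodified replicate 1. The file headers give 1250 bp for the TSS class, yet some of its peaks have a listed distance beyond that, such as the CDKN1A peak at +1675 bp in control cells. The class held 13 of 21 peaks in control cells, 15 of 44 in unmodified replicate 1, 12 of 21 in unmodified replicate 2 and 2 of 6 for RUNX1. These shares were 61.9% (40.9 to 79.2), 34.1% (21.9 to 48.9), 57.1% (36.5 to 75.5) and 33.3% (9.68 to 70.0). Over all peaks the shares were 48.0%, 35.2%, 52.4% and 23.5%, each inside the interval for the 10 genes. Introns held 4, 17, 4 and 2 of the peaks in the same order, or 19.0%, 38.6%, 19.0% and 33.3%. Over all peaks introns held 25.1%, 30.5%, 22.3% and 36.7%. The most distant peaks were CCND2 upstream peaks, at -58199 bp in control cells and -71048 bp in unmodified replicate 1.

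**Figure D3:**
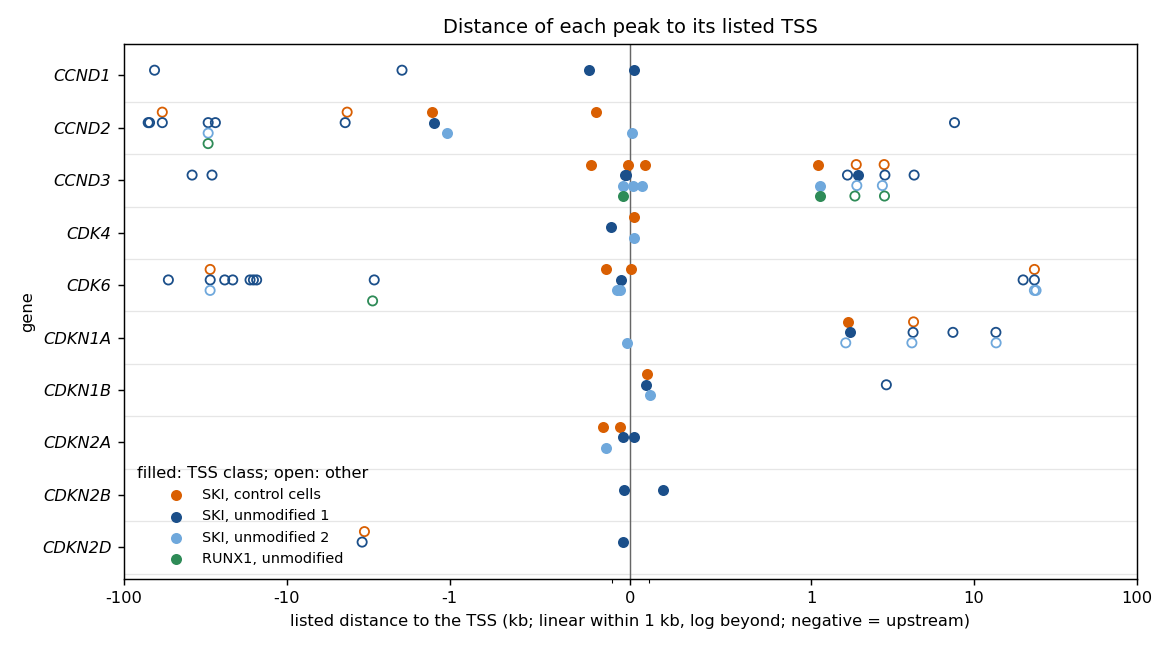
Listed distance of each peak to its TSS in kb (horizontal axis, linear within 1 kb and logarithmic beyond, negative upstream), for each gene (vertical axis) and list (colour). Filled points are peaks of the TSS class and open points are others. CDK4 and CDKN2A peaks all sit at a start, whereas CDK6 and CCND2 also have distal peaks, most of them from unmodified replicate 1.

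By strength the peaks of the 10 genes spread over nearly the whole range of each list. Their median percentiles were 55.6 in control cells, 68.9 in unmodified replicate 1, 60.2 in unmodified replicate 2 and 67.6 for RUNX1. The extremes were 2.13 and 95.6, 7.34 and 96.7, 2.33 and 95.5, and 11.3 and 96.8. In replicate 1, peaks with a partner in both other SKI lists had a median fold enrichment of 59.1, and peaks with none had 15.8, beside 52.5 and 14.9 over all peaks of that list. Such partners were found for 14 of 44 peaks (31.8%), where 16.4% of all its peaks had them.

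RUNX1 overlapped a minority of the SKI peaks at these genes. In control cells 4 of 21 SKI peaks met a RUNX1 peak, a share of 19.0% (7.67 to 40.0), where 27.8% of all peaks did. In unmodified replicate 1 it was 5 of 44, or 11.4% (4.95 to 24.0), where 9.21% did, and in replicate 2 it was 5 of 21, or 23.8% (10.6 to 45.1), where 23.9% did. Of the 14 shared sites 3 carried RUNX1, a share of 21.4% (7.57 to 47.6), where 33.5% of 8980 shared sites did. All 3 belonged to CCND3, and 0 of the 10 shared sites at the 6 other genes had RUNX1.

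By fold enrichment, SKI peaks with RUNX1 were the stronger ones in part of the lists. Median fold enrichments with and without RUNX1 were 32.5 and 10.6 in control cells, 53.6 and 27.03 in unmodified replicate 1, and 9.77 and 12.6 in unmodified replicate 2. The order by fold enrichment in unmodified replicate 2 was thus the opposite of that in the other lists. Over all peaks the median fold enrichments with and without RUNX1 were 17.4 and 10.4, 56.9 and 17.5, and 14.5 and 9.48. In tags the medians at these genes were 222 and 73, 509 and 118, and 108 and 62, higher with RUNX1 in every SKI list. These values rest on 4, 5 and 5 peaks with RUNX1, most of them at CCND3, so they describe that gene more than the family.

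**Figure D4:**
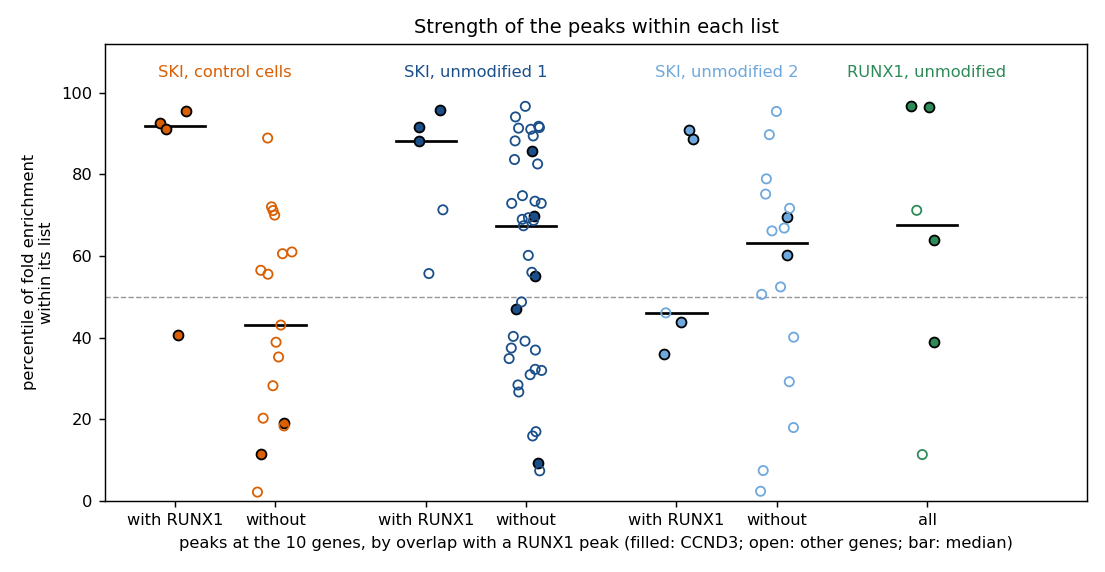
Percentile of fold enrichment within its list (vertical axis) for every peak at the 10 genes, split for the SKI lists by overlap with a RUNX1 peak. Bars are medians, filled points are CCND3 and open points are the other genes. The median with RUNX1 is 91.8 against 43.1 without in control cells, 88.2 against 67.4 in unmodified replicate 1, and 46.1 against 63.2 in unmodified replicate 2.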

How the data were processed

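SKI and RUNX1 were measured by ChIP-seq, and each of the 4 deposited peak lists belongs to 1 sample. The submitters' processing notes name Bowtie2, MACS 1.4, bcl2fastq and deepTools, and hg19 as build. Per the file headers, each peak has a −log10 p-value, a fold enrichment (a ratio over background), a count of tags, a position class and a signed distance to a TSS, all made by the authors. The −log10 p-values stop at 310, which 267 peaks reach in control cells, 4622 in unmodified replicate 1, 82 in unmodified replicate 2 and 291 for RUNX1. No source used here names the control library of a ChIP or its depth.

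SKI peaks overlapping by 1 bp were joined into sites, and RUNX1 was placed on a peak or site by an overlap of 1 bp. Gene shares use the 20056 protein-coding symbols that RefSeq lists, taken as names only because its build differs. Of 13808 protein-coding names in the lists, 96.3% matched. No test was run, and the counting was checked on simulated lists. The 10 genes, the further G1/S genes and the rules were chosen with earlier results of these data known. The text names all 10 genes, with their strongest peaks, RUNX1 peaks and shared sites. Alternatives were a −log10 p of at least 10, at least 35 tags, equal list lengths, distance limits of 10000 and 1000 bp, other rankings, other overlap rules and leaving out each SKI list. The software was pandas 2.3.3, numpy 2.4.6, scipy 1.17.1 and matplotlib 3.10.9 under Python 3.11.15.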

Additional observations from a re-analysis of the deposited data

How the results depend on the processing

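Of 100 alternative values for 22 results, 84 stayed within the limits of the values reported and 16 moved. The limits were a fixed ratio for counts and the 95% interval for shares and medians, which is wide for so few peaks. The 84 include values that could not move. A limit of 35 tags removed no peak at the 10 genes, and equal lengths left the RUNX1 list, the shortest, as it was. When all lists were cut to the 5581 peaks with the highest −log10 p, peaks at the 10 genes fell to 10 in control cells, 12 in unmodified replicate 1 and 9 in unmodified replicate 2. Genes with a peak were then 6 in unmodified replicate 1 and 4 in unmodified replicate 2, and shared sites were 6, at 4 genes. In unmodified replicate 1 the TSS share became 66.7%, beside 70.0% in control cells and 55.6% in unmodified replicate 2. Its median percentile became 39.3 and its share with RUNX1 25.0%. Control cells had a median percentile of 34.7, with RUNX1 on 3 of 10 peaks, and unmodified replicate 2 had 48.2, with RUNX1 on 33.3% of peaks. These control and unmodified replicate 2 values were lower or higher than before but stayed within the limits. Shares over all peaks of the cut lists were not counted. With a TSS within 1000 bp, peaks numbered 10 in control cells, 12 in unmodified replicate 1, 10 in unmodified replicate 2 and 1 for RUNX1 (at 1 gene). Within 10000 bp, 26 remained in unmodified replicate 1. Leaving out each SKI list in turn gave 15 to 17 shared sites, at 7 to 8 genes, with RUNX1 on 3 to 4. No paired analysis was possible because the labels do not pair control with unmodified libraries. The peaks with the fewest tags at the 10 genes rest on 36 to 41 tags, depending on the list. A gene without a listed peak may hold signal below the authors' threshold.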

Other observations

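A set of 20 further genes of the G1/S step held E-type cyclins, E2F factors and retinoblastoma family members, among others. Of these, 6 had a SKI peak in control cells, 19 in unmodified replicate 1 and 10 in unmodified replicate 2, and 3 had a RUNX1 peak. Over all protein-coding genes the shares were 29.7%, 65.0%, 30.7% and 11.2% in the same order. Shared SKI sites lay at 6 of the 20, where 24.0% of protein-coding genes had one: CDKN2C, RB1, RBL1, E2F1, E2F2 and E2F3. No control peak names RB1, so the control peak of its shared site names another gene. RUNX1 lay on such a site at E2F1 alone, with a fold enrichment of 6.67, at percentile 5.56 of its list. E2F3, an activator of S-phase genes chosen here after its values were seen, had SKI fold enrichments of 33.33 in control cells, 117.5 in unmodified replicate 1 and 37.24 in unmodified replicate 2, at percentiles of 92.2, 99.0 and 96.1, and no RUNX1 peak. CDKN1C was the 1 gene of the 20 with no peak in any list.

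Downstream of CDKN2B-AS1, an intergenic SKI peak in unmodified replicate 1 (chr9:22158711-22159552, hg19) had a fold enrichment of 100.8 with 302 tags, rank 1087 of 54841, and was chosen after its values were seen. RUNX1 had a peak on it with a fold enrichment of 21.16 and 38 tags, and neither control cells nor unmodified replicate 2 had a SKI peak there. Of the 1090 peaks of replicate 1 at least as strong, 33 (3.03%) were likewise in neither other SKI list, and 86.5% were in both. The cause was not tested.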
